A study of Drosophila melanogaster with 4 samples.

Results

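The chromatin protein HP2 was mapped by chromatin immunoprecipitation with sequencing (ChIP-seq) in Drosophila melanogaster, and the regions described here are the HP2-enriched clusters in the centromere-proximal 3 Mb of chromosome arm 2L. The span runs from position 20011545 to the end of the assembled arm at 23011544 (FlyBase release 5). Clusters were taken from the list called on the replicate set as a whole, here the combined list, where the midpoint of the cluster lay in the span. This rule uses position only and gave 246 members of 12660 combined clusters. The series holds 2 HP2 ChIP libraries and 2 input libraries, numbered 1 and 2, all from nuclei of wild-type Oregon-R larvae in the third instar. Per the labels, the antibody was Ab2-90 and each input served the cluster list of the ChIP library with the same number. Whole larvae were used, so a cluster carried by more cells and a cluster with more HP2 per cell cannot be told apart. The sources used here do not say whether the replicates were separate collections of larvae, and their spread may be technical.

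HP2 is encoded by Su(var)2-HP2 and binds HP1a, the heterochromatin protein that recognises methylated histone H3 in silent, repeat-rich chromatin. Loss of either protein relieves the silencing of genes placed next to heterochromatin. The base of 2L runs from gene-rich euchromatin into pericentric heterochromatin, and it carries the tandemly repeated genes for the replication-dependent histones. Genes that lie inside the heterochromatin here, such as light (lt), need that environment for normal expression.

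The gene content of this part of the arm was read from a RefSeq table of Release 6, which is another build, so only names and order were used and no cluster is assigned to a gene. The table lists 111 protein-coding histone genes on 2L in 1 unbroken run, made up of 23 His1, 20 His2A, 23 His2B, 23 His3 and 22 His4 genes, between nrv3 and Lamp1. Of 10 other genes known from the base of the arm, 10 were found in the table. Distal to the histone genes lie barr, a condensin subunit, dia, an actin-nucleating formin, cad, a homeodomain factor of the posterior embryo, bur, a GMP synthetase, Hr39, a nuclear receptor, and crc, a relative of ATF4. Proximal to the histone genes lie the zinc finger genes tsh and tio, then lt, which encodes a vesicle-trafficking protein, and cta, which encodes a G protein alpha subunit. Few protein-coding genes follow lt and cta, namely 6 and 5 in the table.

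HP2 clusters formed 2 distinct landscapes within the span. In the inner 1 Mb, at the proximal end of the assembled arm, clusters tended to be wider, higher-scoring and closer together. In the outer 2 Mb they were narrow and scattered, with a cover close to that of the rest of 2L. Cover here means the share of bases under a cluster, in percent. In replicate 1 it was 38.9% of the inner 1 Mb and 3.76% of the outer 2 Mb, and in replicate 2 it was 68.6% of the inner and 10.9% of the outer part. The inner cover was 10.35-fold the outer cover in replicate 1 and 6.28-fold in replicate 2, a mean of 8.31 ± 2.88-fold (SD, n = 2). With only the upper 50% of each list by score, the mean was 16.05-fold. The 2 replicates thus differed in the size of this ratio but both put the inner part above the outer part by more than the spread between them. An exact two-sided sign-flip permutation test over 2 replicates cannot give a p under 0.5, and it gave that value here, as it did for each of the 5 fold comparisons reported (0.5 after Benjamini-Hochberg adjustment over the 5).

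**Figure D1:**
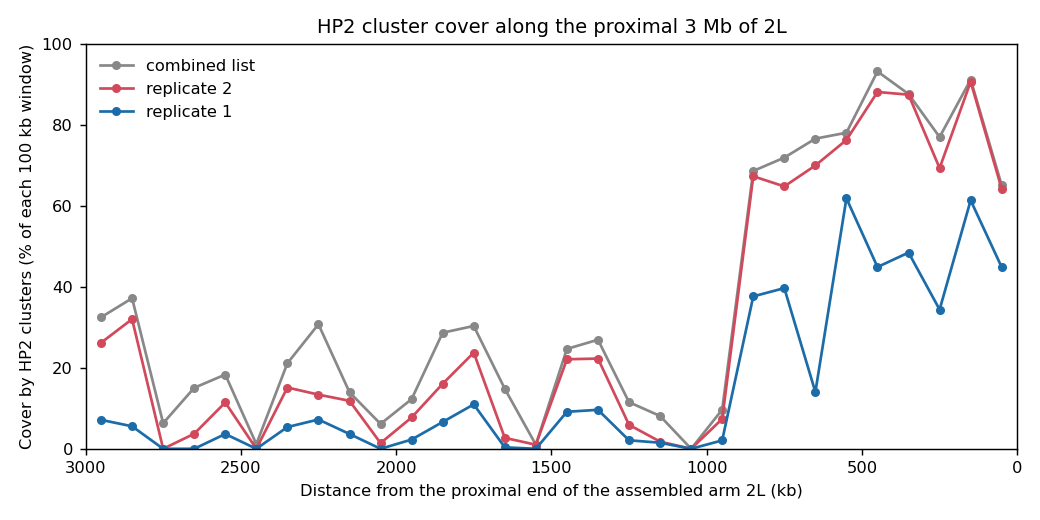
Cover by HP2 clusters (percent) in 30 windows of 100 kb, plotted against the distance from the proximal end of the assembled arm (kb), with 1 line for each replicate list and 1 for the combined list. The 9 windows nearest the end reach 64.2% or more in replicate 2 and the 21 others stay at 32.0% or less, while replicate 1 drops to 14.0% in 1 window of the inner block.

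Across 100 kb windows the change was abrupt. A block was delimited as the windows in a row, starting at the centromere side, whose mean over both replicates was at least 25%. It comprised 9 windows, from 22111545 to 23011544, and held 88 members. Outside it the 21 windows had a cover of 0 to 10.97% in replicate 1, with a median of 2.28%, and of 0 to 32.0% in replicate 2, with a median of 7.73%. Inside it the 9 windows ranged from 14.0 to 61.9% in replicate 1, with a median of 44.8%, and from 64.2 to 90.7% in replicate 2, with a median of 70.0%. The ranges inside and outside the block did not overlap in either replicate, but the block was drawn on this same cover, so its separation is a description. Taking replicate 1 alone, the block ended after 0.6 Mb, at the window from 22311545 to 22411544. That window was covered to only 14.0% in replicate 1 but to 70.0% in replicate 2, a ratio of 4.99 where the other 8 windows of the block had ratios of 1.23 to 2.02. The window next to it, from 22411545 to 22511544, had the most even cover in the block, at 61.9% and 76.3%.

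Within the block the cover was not uniform, and the replicates ordered its windows less alike than they ordered the others. Spearman's rho between the replicates was 0.55 over the 9 windows of the block, 0.93 over the 21 windows outside it and 0.96 over all 30. These values are descriptive, since neighbouring windows share wide clusters. They also rest on unlike numbers of windows. Of the 21 outside the block, 6 in replicate 1 and 3 in replicate 2 were tied at a cover of 0. The window from 22811545 to 22911544 had the highest mean cover, 76.0 ± 20.7% (SD, n = 2), with 61.4% in replicate 1 and 90.7% in replicate 2. By 500 kb segments the innermost was covered to 46.8% and 80.0% and the next to 31.1% and 57.2%. The most proximal cluster ended at 22986158, and the combined list had no cluster in the last 25.39 kb of the assembled arm.

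The edge of the block was also read in windows of 10 kb. In the 100 kb distal to 22111545, no window of 10 kb had a cover above 23.1% in replicate 2 and 9 of 10 had none in replicate 1, while the most distal had 20.8%. In the first 10 kb on the proximal side the cover was 40.9% in replicate 1 and 74.6% in replicate 2. The first cluster of the block, at 22114120 to 22124496, was 10.4 kb wide, and the next, at 22127708 to 22135124, was 7.42 kb wide with a combined score of 1.52. The 10 members proximal to the edge had a median width of 4.65 kb, with a range of 1.17 to 19.7 kb, and 6 of them overlapped clusters in both replicates. The 10 members distal to it had a median of 1.31 kb, with a range of 1.12 to 2.30 kb, and 1 of them did. That 1 cluster, at 22018048 to 22020190, had a combined score of 1.17 and scores of 0.81 and 1.47 in replicates 1 and 2. Of all combined clusters 22.3% were overlapped in both replicates. The edge was drawn on replicate cover, so the contrast in width and overlap across it is a description. Cover was not high throughout the first 100 kb of the block. In the 3 windows from 22131545 to 22161544 it was 11.5%, 14.2% and 0% in replicate 1, all below that most distal window, and 38.4%, 54.7% and 13.9% in replicate 2.

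**Figure D2:**
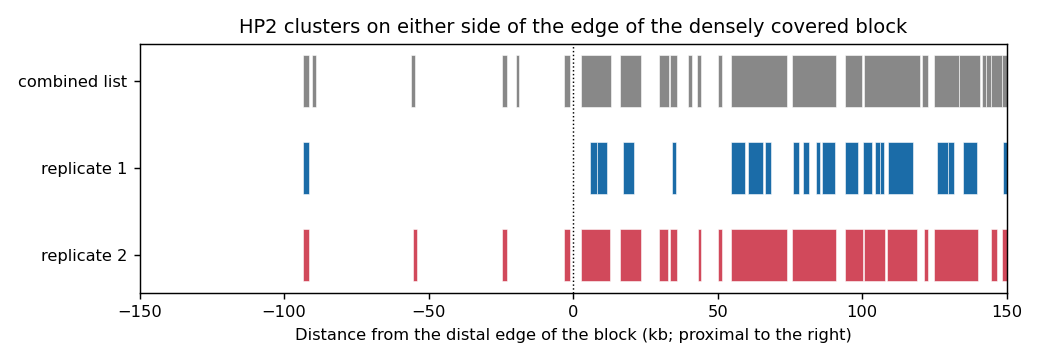
Clusters of the combined list, replicate 1 and replicate 2 drawn to scale as bars within 150 kb on either side of the distal edge of the block, with the distance from that edge in kb and the proximal side to the right. Narrow, isolated bars lie on the distal side. On the proximal side the first bars start within 10 kb of the edge in all 3 lists, and those of replicate 1 are narrower. From 23.6 to 54.4 kb all 3 lists hold only narrow bars, and wider bars follow.

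Members of the 2 parts also differed in median width, though their ranges of width overlapped. Cover grows with width, so this is not separate from the difference in cover. In the combined list the median width was 4.00 kb for the 94 inner members and 1.66 kb for the 152 outer members, a difference of 2.34 kb. In the replicate 1 list the medians were 2.39 kb for 107 inner clusters and 1.93 kb for 35 outer clusters, a difference of 0.462 kb. In replicate 2 they were 4.18 kb for 87 inner clusters and 2.06 kb for 86 outer clusters, a difference of 2.12 kb. The direction was the same in both replicates, but the mean difference of 1.29 ± 1.18 kb (SD, n = 2) was hardly larger than its spread. After clusters within 1 kb were merged the differences were 4.64 kb in the combined list, 1.98 kb in replicate 1 and 4.26 kb in replicate 2. Neighbouring members lay a median of 1.10 kb apart in the inner part and 4.13 kb apart in the outer part. In the innermost 500 kb the median distance was only 0.415 kb.

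Wide clusters made up much of the occupied sequence. Of the 246 members 25 were wider than 10 kb, or 10.2% (exact 95% interval 6.69 to 14.6%), against 2.24% of all combined clusters. The inner part held 23 of them and the outer part 2, and all 25 overlapped clusters in both replicates. This was not particular to the span. Over all combined clusters the widest in neither replicate was 6.14 kb and the widest in replicate 1 alone 6.26 kb. The widest in replicate 2 alone was 12.9 kb, so every combined cluster over 10 kb was overlapped at least in replicate 2. The 25 wide members made up 45.0% of the summed width of all members. The widest was 38.3 kb, at 22579436 to 22617690, with a combined score of 0.873, and 64.9% of it was covered in replicate 1 and 98.8% in replicate 2. Next came a cluster of 37.7 kb at 22420346 to 22458022, with a combined score of 1.58, covered to 85.9% and 100%. The next widest were 27.1 kb at 22959074 to 22986158, 26.8 kb at 22743898 to 22770720 and 24.3 kb at 22841726 to 22866024. Joined across distances of up to 1 kb, 6 members from 22579436 to 22661446 formed a run of 82.0 kb, the longest in the span. Runs over 20 kb numbered 15 of 52 in the inner part and 1 of 121 in the outer part.

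The replicates matched these domains with different numbers of clusters, counted wherever at least 1 bp overlapped. The widest member overlapped 7 clusters in replicate 1 and 2 in replicate 2. Of these 2, 1 was 40.7 kb wide and ran on into the next member. The 24.3 kb member overlapped 7 in replicate 1 and 1 in replicate 2. Of the 25 members over 10 kb, 22 overlapped more than 1 cluster in replicate 1 and 8 in replicate 2. A cluster that only reached in from a neighbouring member counts here, so not each of these members was split. A median of 64.0% of the length of the 25 members was covered in replicate 1 and 99.7% in replicate 2. The number of clusters therefore went against the cover here: the inner 1 Mb had more clusters in replicate 1 than in replicate 2 (107 against 87) although it was covered less. In the outer 2 Mb the counts were 35 and 86.

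**Figure D3:**
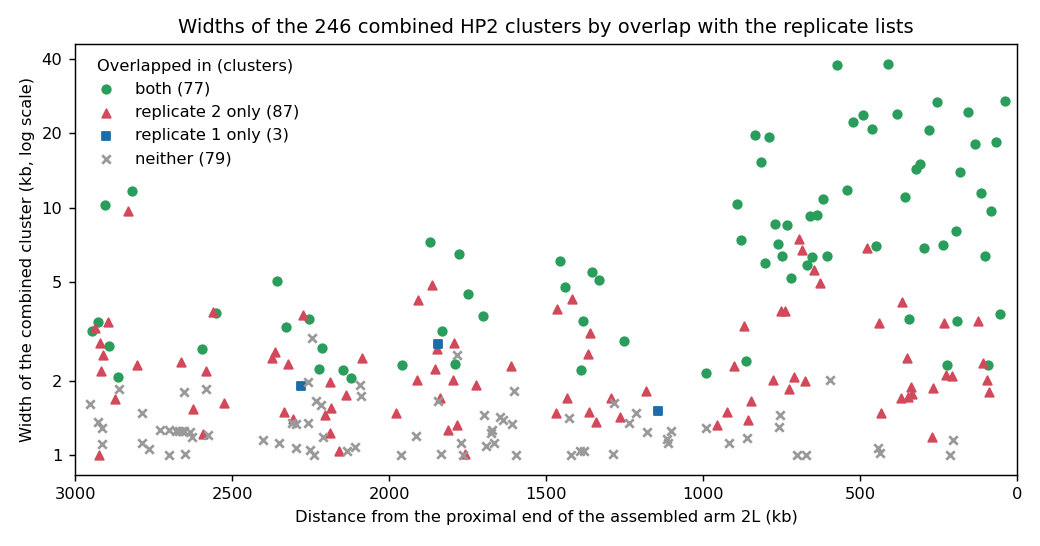
Width of each of the 246 combined clusters (kb, log scale) against the distance from the proximal end of the assembled arm (kb), with the symbol showing in which replicate lists the cluster was overlapped. Clusters wider than 10 kb are all overlapped in both replicates and gather within 900 kb of the end, apart from 2 near the distal limit of the span.

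Most members recurred in at least 1 replicate list. A member was counted as overlapped where it shared at least 1 bp with a cluster of the replicate. In both replicates 77 members, or 31.3% (exact 95% interval 25.6 to 37.5%), were overlapped, against 22.3% of all combined clusters. Only in replicate 2 it was 87 members, or 35.4%, against 29.9% of all. Only in replicate 1 it was 3 members, or 1.22%, against 3.82% of all. In neither it was 79 members, or 32.1%, against 43.9% of all. These intervals cover counting error only, and wide clusters have more room to overlap. The lists also differ in their narrowest cluster, 1.001 kb in the combined list and 1.301 kb in each replicate list. The part of this difference in the share overlapped in neither replicate was not tested. The share in both replicates was 14.2% where the overlap had to reach 50% of both clusters.

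The inner part accounted for the surplus over the whole list. Of the 94 inner members 48, or 51.1% (exact 95% interval 40.5 to 61.5%), were overlapped in both replicates and 12 in neither. Of the 152 outer members 29, or 19.1% (13.2 to 26.2%), were overlapped in both and 67 in neither. The outer share was close to the 21.1% of the 1438 combined clusters in the rest of 2L. All 3 members found in replicate 1 alone lay in the outer part. They were at 20731134 to 20733038, 21164302 to 21167130 and 21866736 to 21868242, with combined scores of 0.3025, 0.3255 and 0.184.

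Seen from the replicate lists, nearly every replicate 1 cluster in the span shared at least 1 bp with replicate 2. Of 142 replicate 1 clusters 138, or 97.2% (exact 95% interval 92.9 to 99.2%), were overlapped by replicate 2, against 86.0% of all replicate 1 clusters. In the inner part it was 107 of 107 and in the outer part 31 of 35. Of 173 replicate 2 clusters 78, or 45.1% (37.5 to 52.8%), were overlapped by replicate 1, against 41.7% of all replicate 2 clusters. Where the overlap had to reach 50% of both clusters, the shares were 27.5% for replicate 1 and 22.5% for replicate 2. At 1 bp the replicate 2 share was 56.3% of 87 in the inner part and 33.7% of 86 in the outer part. Replicate 2 covered more of the sequence than replicate 1 in both parts of the span, and the part of this in the shares was not tested.

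Scores, which the authors deposited with no stated scale, were compared within each list only. In the combined list the median score was 0.806 for inner members and 0.354 for outer members. In replicate 1 it was 0.660 for inner and 0.487 for outer clusters, and in replicate 2 it was 1.04 for inner and 0.528 for outer clusters. Over all clusters the median of the combined list was 0.392, that of replicate 1 was 0.573 and that of replicate 2 was 0.632, so the outer part lay below the whole list and the inner part above it in each list. Among the higher-scoring 50% of replicate 1 clusters the difference changed sign, to -0.0372. Of the members 39, or 15.9% (exact 95% interval 11.5 to 21.0%), were among the highest-scoring 10% of the combined list (10.0% of all clusters by definition). The inner part held 32 of them and the outer part 7. A combined score that recurs in at least 1 other combined cluster was found for 66 members, or 26.8%, against 37.0% of all combined clusters, and 48 of the 66 lay in the outer part. Score and width were related across clusters of the span. Spearman's rho was 0.55 over 246 combined clusters, 0.54 over 142 of replicate 1 and 0.65 over 173 of replicate 2. These values pool inner and outer clusters, and the part of width in the higher scores of the inner part was not tested.

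**Figure D4:**
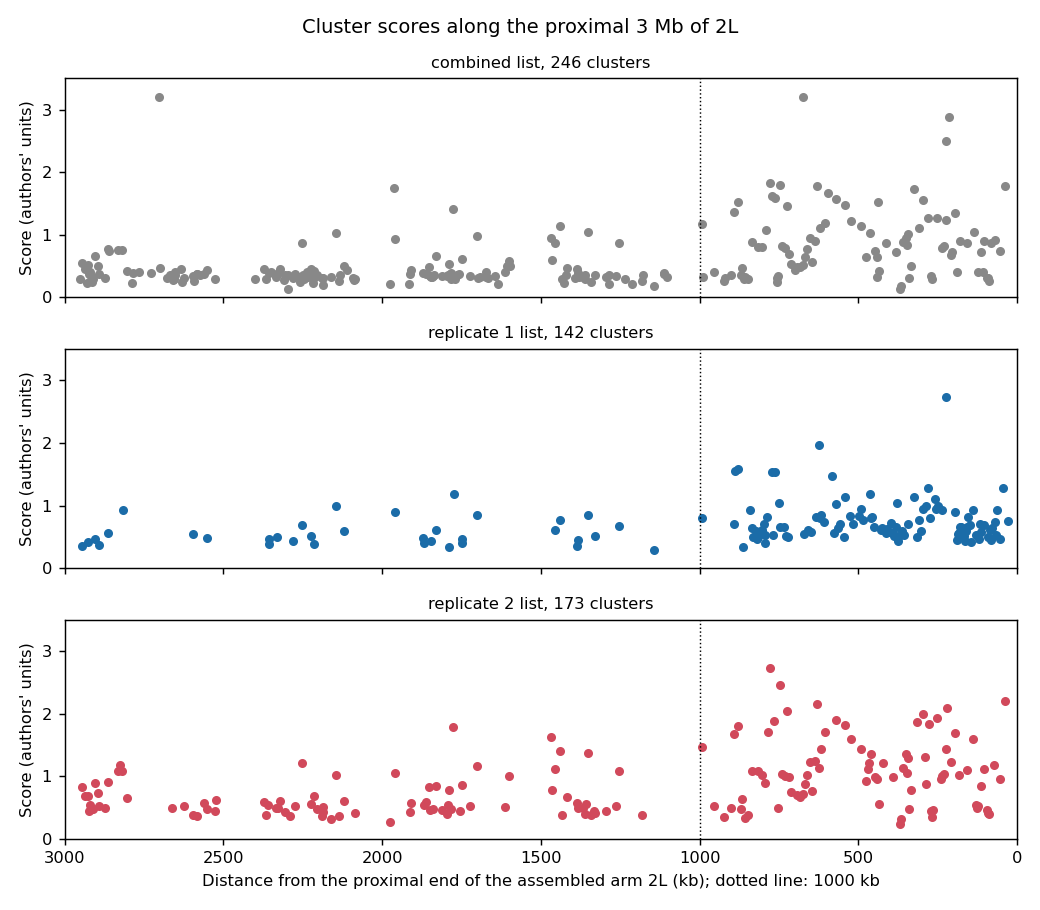
Score of each cluster in the span, in the authors' units, against the distance from the proximal end of the assembled arm (kb), with a panel each for the combined list (246 clusters), replicate 1 (142) and replicate 2 (173). Higher scores gather to the right of the dotted line at 1000 kb in each panel, and the highest points of the combined panel, at 3.20, have no counterpart in the replicate panels.

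Among members overlapped in both replicates, the highest combined score was at 22787420 to 22789744, 223 kb from the proximal end. It was only 2.33 kb wide, and its combined score was 2.504. The replicate 1 cluster there had a score of 2.74 and the replicate 2 cluster a score of 2.09. The next in the innermost 500 kb among members overlapped in both replicates were the 27.1 kb cluster that ends the occupied sequence (combined score 1.77, with 1.28 and 2.20 in replicates 1 and 2) and a 14.3 kb cluster at 22680628 to 22694950 (1.73, with 1.13 and 1.87). Nearly all of their length was covered in each replicate, at 93.9% and 99.9% for the 27.1 kb cluster and at 97.3% and 99.9% for the 14.3 kb cluster. Replicate scores given for a member are the highest among the clusters overlapping it. Replicate 1 had 2 clusters on the 27.1 kb member, with scores of 1.28 and 0.752. The replicate 2 cluster on the 14.3 kb member was 30.0 kb wide and also overlapped the member next to it. In the adjoining 500 kb segment the 3 highest-scoring clusters among those overlapped in both replicates lay close together, at 22236386 to 22244958 (8.57 kb, combined score 1.62), 22245114 to 22252236 (7.12 kb, 1.60) and 22259938 to 22266352 (6.42 kb, 1.80). A single replicate 2 cluster with a score of 1.89 overlapped both of the first pair.

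Some high scores in the inner part rested on 1 replicate. The cluster at 22232094 to 22234110 had a combined score of 1.82, shared with 1 other combined cluster, and a score of 2.73 in replicate 2, with no replicate 1 cluster. The cluster at 22379560 to 22384538 (4.98 kb, combined score 1.78) likewise had a score of 2.16 in replicate 2 only. It lies in the window where replicate 1 had its low cover. These 2 clusters were chosen after their values were seen.

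The outer 2 Mb was not empty. Its windows of 100 kb held from 0 to 16 members, and in each 500 kb segment some members were overlapped in both replicates. Whether members were grouped was not tested. The 2 most distal windows of 100 kb held 12 and 8 members. They were covered to 7.15% and 5.55% in replicate 1 and to 26.2% and 32.0% in replicate 2, and the window after them had no cluster in either replicate. Both outer members over 10 kb lay in these windows, at 20102944 to 20113236 (10.3 kb wide, with a combined score of 0.656) and at 20185764 to 20197438 (11.7 kb wide, with a score of 0.753). Replicate 1 covered just 32.2% and 13.8% of them, and replicate 2 covered 100% and 96.2%. The highest score of this segment among members found in both replicates was 0.772, at 20147484 to 20149560, a narrow cluster of 2.08 kb covered to 97.2% and 99.3%.

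Leading clusters of the other outer segments are likewise those with the highest combined score among members overlapped in both replicates. In the next segment the leading cluster, at 20863864 to 20866080, was 2.22 kb wide, had a combined score of 1.02 and scores of 0.994 and 1.03 in replicates 1 and 2. It was followed by 20756000 to 20759562 (combined score 0.869) and 20890256 to 20892316 (0.496). Between 21011545 and 21511544 the leading cluster, at 21232208 to 21238724, was 6.52 kb wide with a combined score of 1.41, the highest in the outer part among members found in both replicates, and scores of 1.18 and 1.79 in replicates 1 and 2. The others there were at 21308302 to 21311948 (0.977) and 21050868 to 21053182 (0.935). The most proximal outer segment held leading clusters at 21569748 to 21574550 (4.80 kb, 1.14), 21655826 to 21661324 (5.50 kb, 1.05) and 21553674 to 21559746 (6.07 kb, 0.869). All 12 leading clusters of the outer part were overlapped in both replicates by the rule that chose them. Replicate 2 covered at least 88.3% of each, but replicate 1 covered from 13.8% to 99.4%. Of the cluster at 21232208 to 21238724 replicate 1 covered 52.95%.

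Long stretches of the outer part had no combined cluster. The longest ran for 128 kb, from 21414487 to 21542625, and no cluster of either replicate lay in it. On its distal side 3 members in a row, from 21402362 to 21414486, were overlapped in neither replicate, and the member at its proximal edge, at 21542626 to 21544114, was overlapped in replicate 2 alone. The next stretch ran for 125 kb, from 20485035 to 20610239, with 1.13% covered in replicate 2 and none in replicate 1. A stretch of 110 kb, from 21908177 to 22018047, lay distal to the edge of the block. Stretches of this length were not particular to the base of the arm: among 1683 gaps between combined clusters along 2L the 3 ranked 15, 17 and 23. The lists do not show which sequence could be mapped, and the part of mappability in these stretches was not tested.

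Set against the rest of 2L, the whole span had more HP2 cover. Clusters took up 15.5% of it in replicate 1 and 30.1% in replicate 2, against 4.44% and 7.99% of the remaining arm. The folds were 3.49 and 3.77, a mean of 3.63 ± 0.20-fold (SD, n = 2), larger than the spread between replicates (exact sign-flip permutation p = 0.5, the smallest possible). With lower scores left out, so that the upper 50% of a list remained, the fold was 7.245. With lists of equal length the replicates lay further apart, at 3.49 and 6.05. The outer 2 Mb by itself was 0.848-fold the rest of 2L in replicate 1 and 1.37-fold in replicate 2, so it lay below it in 1 replicate and above it in the other. The number of combined clusters differed less than the cover, with 94 per Mb in the inner part, 76 per Mb in the outer part and 71.9 per Mb in the rest of 2L. Medians of width and combined score were 1.66 kb and 0.354 in the outer part, and 1.66 kb and 0.354 in the rest of 2L.

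Against equal spans at the base of other arms, the cover on 2L lay between that of 3L and those of 3R and X. On 2L it was 15.5% and 30.1% in replicates 1 and 2, against 18.1% and 39.8% on 3L, 6.10% and 12.5% on 3R, and 3.02% and 11.2% on the X. The cover on 2L was 0.81 ± 0.07-fold that on 3L, 2.48 ± 0.09-fold that on 3R and 3.91 ± 1.74-fold that on the X (SD, n = 2 for each). The fold over 3R was 4.87 with only the upper 50% of each list by score, and the fold over the X was 6.09 with spans of 2 Mb. With lists of equal length the fold over 3R was 2.54 in replicate 1 and 4.08 in replicate 2. The direction of each of the 3 folds was the same in both replicates (exact sign-flip permutation p = 0.5 each, the smallest possible). Each span was measured from the end of the assembled arm. A difference in HP2 between arms and a difference in how far each assembly reaches cannot be told apart. The shape of the profile also differed. On 2L the mean cover of the replicates was 63.4% in the innermost 500 kb segment, 44.1% in the next and 7.44% in the one after it. On 3L those 3 segments had 42.0%, 56.0% and 57.8%, and the cover dropped to 8.87% only in the fourth. The innermost 500 kb had 14.4% on 3R and 1.18% on the X. Members over 10 kb numbered 25 of 246 on 2L, 34 of 303 on 3L, 2 of 282 on 3R and 0 of 234 on the X.

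**Figure D5:**
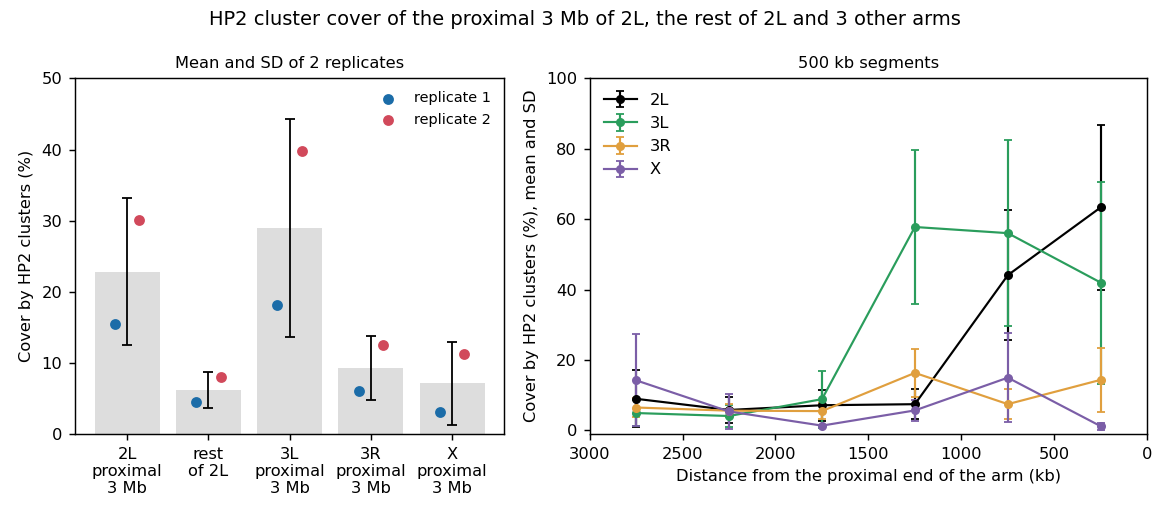
Left, cover by HP2 clusters (percent) of the proximal 3 Mb of 2L, the rest of 2L and the proximal 3 Mb of 3L, 3R and X, with bars for the mean, whiskers for the SD and points for the 2 replicates. Right, mean cover and SD of the 2 replicates in segments of 500 kb against the distance from the proximal end of each arm (kb), where 2L drops between the second and the third segment from the end, and 3L between the third and the fourth.

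The limit of the span fell in sparsely occupied sequence. The last combined cluster outside it was at 19985736 to 19987010 (1.28 kb, combined score 0.388) and the first inside it at 20058652 to 20060266 (1.62 kb, 0.291), and neither was overlapped in a replicate. Requiring members to lie wholly inside the span left the same share in both replicates, 31.3%.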

How the data were processed

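Nuclei of whole third-instar larvae were profiled by HP2 ChIP-seq in 2 ChIP and 2 input libraries. Per the submitters' processing notes the tools included Bowtie 0.12.7. The authors deposited 3 lists of enriched regions with a score per region. Per the file headers, positions are on FlyBase release 5, and they are given 1-based. No source used here names the region caller, its threshold, the scale of the score or the way the combined list was made. The lists hold no counts, so the depth is unknown. Each input has an effect only by way of the calls made by the authors.

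Clusters were assigned by midpoint, and those past a chromosome end were trimmed (3 in the combined list, 2 in replicate 2, none of them in the span). Cover, overlap (at least 1 bp), widths and scores were computed with Python 3.11.15, NumPy 2.4.6 and SciPy 1.17.1. The overlap and cover code was tested on simulated clusters. Shares have exact (Clopper-Pearson) 95% intervals. Folds have the SD over 2 replicates and an exact sign-flip permutation test. The base of 2R was not used here.

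The members, parts and alternatives were chosen with earlier results of these data known. Named clusters are the 3 highest-scoring members overlapped in both replicates in each of 6 segments of 500 kb, the 5 widest, the highest-scoring member in neither replicate, the clusters at the span's limit and the 3 longest cluster-free stretches. Other named clusters were chosen after their values were seen. Alternatives were a list limited to its upper 50% by score, merging within 1 kb, lists of equal length, other spans, windows, limits and overlap rules, and leaving out each replicate.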

Additional observations from a re-analysis of the deposited data

How the results depend on the processing

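Of 81 alternative values for 15 results, 54 stayed within the spread between replicates or the exact interval, 26 moved beyond it and 1 changed sign. Part of the 54 was fixed in advance, so the count does not measure robustness. With 2 replicates, the fold of either replicate alone always lies within the SD of their mean. Requiring clusters to lie wholly inside the span left every value tried unchanged. With the higher-scoring 50% of each list, the cover of the span was 7.245-fold that of the rest of 2L and 4.87-fold that of 3R, the inner cover was 16.05-fold the outer cover, 42.1% of members were overlapped in both replicates and 56.8% of replicate 2 clusters in replicate 1. The inner-minus-outer difference in median score was then -0.0372 in replicate 1, where it changed sign, and 0.231 in replicate 2, and that in median width was 4.16 kb in the combined list and 3.43 kb in replicate 2. This selection is made on the score itself. Merging within 1 kb gave width differences of 4.64 kb in the combined list, 1.98 kb in replicate 1 and 4.26 kb in replicate 2, as joining makes clusters wider. With lists of equal length the span was 4.77-fold the rest of 2L (3.49 and 6.05 in replicates 1 and 2) and 3.31-fold 3R (2.54 and 4.08). A span of 2 Mb gave 4.88-fold for the rest of 2L, 2.88-fold for 3R and 6.09-fold for the X, a span of 1 Mb gave 8.60-fold for the rest of 2L, and the outer 2 Mb alone, added after seeing the data, gave 1.11-fold. A reciprocal overlap of 50% left 14.2% of members in both replicates, 27.5% of replicate 1 clusters and 22.5% of replicate 2 clusters, and a cover of 50% of the cluster itself left 23.6% of members and 34.7% of replicate 2 clusters. Members with an unshared score, also added later, gave 41.1%. Leaving out a replicate gave a block of 0.6 Mb (without replicate 2) to 0.9 Mb, where windows of 200 kb gave 1 Mb, and 32.5 to 66.7% of members overlapped in the remaining one. For the folds it gave 3.49 to 3.77 for the rest of 2L, 6.28 to 10.35 for inner over outer, 0.757 to 0.855 for 3L, 2.41 to 2.54 for 3R and 2.68 to 5.13 for the X. Causes beyond those named were not tested. No paired analysis was possible because the input libraries that share the replicate numbers enter only through the authors' calls. With 2 replicates and no counts, depth could not be weighed.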

Other observations

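The highest combined scores of the span belonged to clusters that no cluster of either replicate overlapped. They were narrower than 1.301 kb, the width of the narrowest cluster in each replicate list, so neither list could hold them at their own width. Narrow clusters at 20309130 to 20310134 and 22337418 to 22338422, each 1005 bp wide, shared a combined score of 3.20 with 7 more of the 9 combined clusters that have this value in the series. The next, at 22797036 to 22798036, was 1001 bp wide and had a score of 2.88 that 17 combined clusters share. Of the 25 members no wider than 1100 bp, 22 were overlapped in neither replicate, as were 1617 of the 1720 such clusters in the whole combined list. Clusters in neither replicate were not eligible as leading clusters.

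The scaffold 2LHet, heterochromatic sequence of the same arm that is not joined to it, held 37 combined clusters on 369 kb. The 0.9 Mb block at the end of the arm was covered to 43.0% and 75.4% in replicates 1 and 2, against 22.0% and 47.4% of 2LHet. The median combined score was 0.827 for members in the block, against 0.859 for clusters on 2LHet.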
